A study of Mus musculus with 10 samples.

Results

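The Slc25 genes encode the mitochondrial carrier family, and the peaks of open chromatin assigned to them are described here across the treatments of cultured mouse adipocytes. A peak was taken as belonging to an Slc25 gene when its midpoint lay inside the RefSeq GRCm38.p6 bounds of a protein-coding gene whose symbol starts with Slc25a, or in no protein-coding gene with such a gene as the nearest within 50 kb. Of 122984 peaks in the count table, 200 met this rule, and 196 of them passed the filter on low counts, as did 118954 peaks in all. The annotation holds 47 Slc25a genes, of which 4 on the X chromosome were outside the rule, and 40 of the 43 on autosomes had at least 1 peak. Slc25a41, Slc25a2 and Slc25a31 had none. Of the 200 peaks, 113 lay inside their gene and 87 outside, and a gene had 1 to 20 peaks with a median of 3. Slc25a21 had the 20. The farthest member peak, P84764 at Slc25a33, lay 48.1 kb out, and the nearest peak beyond the limit, P76181 at Slc25a24, lay 50.9 kb out. Along the forskolin series P84764 averaged 6.49 CPM (the count scaled to a common library size) in control, 4.25 at 4 h, 5.33 at 1 d and 5.31 at 3 d, and P76181 averaged 0.734, 2.03, 1.82 and 1.68 CPM in the same order.

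Mitochondrial carriers are small proteins, nearly all of the inner mitochondrial membrane, that exchange or import metabolites, nucleotides, cofactors and ions between the cytosol and the matrix. Most work as strict exchangers that switch between a state open to the matrix and a state open to the cytosol, so they set which substrates reach the citric acid cycle, fatty acid oxidation and ATP synthesis. Fat cells use them to export citrate for lipid synthesis, to import acylcarnitines for oxidation and, in brown fat, to supply thermogenesis. The uncoupling proteins Ucp1, Ucp2 and Ucp3 are of the same protein family but carry other symbols, so they were not members here.

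The assay was ATAC-seq: a transposase cuts into open DNA and leaves sequencing adapters there. MAP cells, an immortalized mouse line of adipocyte progenitors, were differentiated in a medium with insulin, isobutylmethylxanthine at 500 uM, dexamethasone at 1 uM and rosiglitazone at 1 uM, so the cells of every group, control included, had received rosiglitazone before treatment. At day 7 to 8 the adipocytes were given forskolin, an activator of adenylyl cyclase that raises cAMP, for 4 h (libraries S3 and S4), 1 d (S5 and S6) or 3 d (S7 and S8), or rosiglitazone, a PPARγ agonist, for 3 d (S9 and S10), and the control libraries were S1 and S2. The labels give adipocyte browning as the aim of both treatments and name no dose for either. They name no treatment time for the control, and the same control libraries served every comparison with control. A change with the time of treatment thus cannot be told apart from a change with time in culture. All cells came from 1 line, each library started from 10000 sorted nuclei, and the labels do not say if a group's libraries were separate cultures. The p-values thus measure the spread between these libraries only.

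Library totals ran from 10410233 to 18935287 counts in peaks, and the Slc25a peaks held 0.239% to 0.258% of them. The 6 adipocyte markers Adipoq, Pparg, Fabp4, Plin1, Cebpa and Lep all had peaks. Their summed level was 669 to 707 CPM at 4 h of forskolin, 616 to 619 at 1 d, 644 to 662 at 3 d and 855 to 858 after rosiglitazone, against 703 to 774 in control. The higher sum after rosiglitazone came with Fabp4 (log2 fold change 1.19, adjusted p = 3.24e-11), while Cebpa fell (−0.35, adjusted p = 0.0116) and the median of the 6 was −0.13. Under forskolin Fabp4 rose and 2 markers fell at 4 h, 5 fell at 1 d and 3 fell at 3 d. Of 4 macrophage markers Adgre1 had no peak, and the sum of the other 3 was 58.7 to 62.0 CPM at 4 h, 45.4 to 47.7 at 1 d, 48.0 to 49.5 at 3 d and 56.4 to 57.0 after rosiglitazone, against 39.6 to 43.6 in control. Csf1r rose under each treatment (1.47 at 4 h, 0.96 at 1 d, 0.64 at 3 d and 0.60 after rosiglitazone). Cd68 rose at 4 h (0.38) and after rosiglitazone (0.41). Ptprc was not called against control, with −0.20 at 4 h, −0.32 at 1 d, −0.16 at 3 d and 0.40 after rosiglitazone. The 4 progenitor markers summed to 211 to 239 CPM over the treated libraries and 237 to 241 in control. Of these, Cd34 was called lower at 4 h (−0.26) and Ly6a after rosiglitazone (−0.40), with no other call against control. The part of these shifts in the results below was not tested, and a change in a peak's mean level cannot be told apart from a change in the share of cells that hold it open.

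RefSeq windows of promoter sequence, 250 bases before to 50 after an annotated start, were at hand for 32 of the 43 genes (39 windows). The windows printed are those of Slc25a25 and Slc25a36, the only Slc25a windows with a full cAMP response element, and those of Slc25a34 and Slc25a42, whose promoter peaks were called in opposite directions at 1 d. All lie on the minus strand and are written 5′ to 3′ in GRCm38.p6, with matches to the searched motifs in capitals.
Slc25a25 chr2:32424017-32424316 (-): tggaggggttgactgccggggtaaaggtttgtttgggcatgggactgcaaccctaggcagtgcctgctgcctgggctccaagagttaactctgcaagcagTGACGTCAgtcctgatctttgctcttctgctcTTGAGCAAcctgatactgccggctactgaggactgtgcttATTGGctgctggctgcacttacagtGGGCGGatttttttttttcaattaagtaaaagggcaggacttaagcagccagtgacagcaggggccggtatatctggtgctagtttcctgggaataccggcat
Slc25a36 chr9:97110992-97111291 (-): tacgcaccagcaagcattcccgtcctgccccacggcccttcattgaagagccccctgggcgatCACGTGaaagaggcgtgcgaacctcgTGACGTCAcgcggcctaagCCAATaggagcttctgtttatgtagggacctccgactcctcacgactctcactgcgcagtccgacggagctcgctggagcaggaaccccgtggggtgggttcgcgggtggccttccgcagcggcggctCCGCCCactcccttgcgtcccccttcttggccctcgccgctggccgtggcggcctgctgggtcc
Slc25a34 chr4:141623785-141624084 (-): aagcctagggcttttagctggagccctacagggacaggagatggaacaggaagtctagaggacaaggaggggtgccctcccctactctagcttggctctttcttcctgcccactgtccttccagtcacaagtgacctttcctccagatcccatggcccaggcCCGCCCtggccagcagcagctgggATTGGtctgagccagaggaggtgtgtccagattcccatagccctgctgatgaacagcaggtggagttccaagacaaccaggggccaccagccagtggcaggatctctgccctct
Slc25a42 chr8:70212232-70212531 (-): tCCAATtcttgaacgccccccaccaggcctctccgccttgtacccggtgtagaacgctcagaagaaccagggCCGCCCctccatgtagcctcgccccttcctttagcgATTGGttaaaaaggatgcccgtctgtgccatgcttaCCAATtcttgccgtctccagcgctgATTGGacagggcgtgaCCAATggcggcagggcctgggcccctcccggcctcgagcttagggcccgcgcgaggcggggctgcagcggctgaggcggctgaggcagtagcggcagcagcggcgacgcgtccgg
The motifs searched on both strands were CRE (TGACGTCA), its shorter core (TGACG, which lies in every CRE), AP-1 (TGANTCA), NRF1, GABPA (CCGGAAG), the CCAAT box (CCAAT), the E-box (CACGTG), C/EBP (TTGCNNAA), DR1 and Sp1 (GGGCGG). The CRE stood 150 bases upstream of the start in the Slc25a25 window and 161 bases upstream in the Slc25a36 window. It occurred in 2 of 39 Slc25a windows (5.13%), in 588 of all 32851 windows (1.79%) and in 2.23% of those of protein-coding genes. The Slc25a34 window held 1 CCAAT box and 1 Sp1 match, and the Slc25a42 window held 5 CCAAT boxes and 1 Sp1 match. CCAAT boxes occurred in 53.8% of Slc25a windows, 37.4% of all and 38.2% of those of protein-coding genes. Sp1 matches occurred in 79.5%, 35.7% and 46.2% in the same order. The GC content of the windows had a median of 59.7% for Slc25a genes, 52.7% for all and 56.3% for protein-coding genes.

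Peaks and genes were tested against control with edgeR's quasi-likelihood F test over all 10 libraries, and called at a Benjamini-Hochberg adjusted p under 0.05 over every peak or gene tested. Gene accessibility is the count summed over a gene's peaks. At 4 h of forskolin 39 Slc25a peaks rose and 34 fell, while 18.5% of all tested peaks rose and 12.9% fell. At 1 d 26 rose and 33 fell (12.9% and 9.84% of all), at 3 d 13 rose and 8 fell (8.49% and 5.34%), and after rosiglitazone 10 rose and 5 fell (3.22% and 3.34%). As shares of the 196 tested, the members called at 4 h were 19.9% and 17.3%, at 1 d 13.3% and 16.8%, at 3 d 6.63% and 4.08%, and after rosiglitazone 5.10% and 2.55%. The median log2 fold change of the Slc25a peaks was −0.14 at 4 h, −0.06 at 1 d, −0.05 at 3 d and 0.06 after rosiglitazone, and that of all peaks was −0.00, 0.04, 0.01 and −0.00. A joint test for any difference among the 5 groups called 102 of the 196 peaks, where 45.9% of all tested peaks were called.

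By gene accessibility 7 Slc25a genes rose and 16 fell at 4 h (12.1% and 23.2% of 17085 genes tested). At 1 d 3 rose and 16 fell (9.33% and 28.5%), at 3 d 2 rose and 5 fell (5.22% and 10.4%), and after rosiglitazone 2 rose and 4 fell (2.37% and 5.14%). The members' median was −0.20 at 4 h, −0.20 at 1 d, −0.09 at 3 d and −0.03 after rosiglitazone, beside −0.12, −0.14, −0.10 and −0.06 for all genes. No call was made on 11 genes at any of these times: Slc25a12, Slc25a16, Slc25a17, Slc25a29, Slc25a30, Slc25a35, Slc25a38, Slc25a40, Slc25a46, Slc25a47 and Slc25a48. Slc25a15 also had none against control.

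Single libraries and the scaling moved these counts. Without S2, S3 or S4 the calls at 4 h numbered 37, 39 and 47 peaks and 7, 8 and 11 genes, and without S1 15 genes. At 1 d they were 33 peaks without S2 and 37 without S5, and 11 genes in both cases. At 3 d they were 12 peaks without S2 and 39 without S8, and 4, 2, 2 and 14 genes without S1, S2, S7 and S8. After rosiglitazone they were 9, 9, 7 and 8 peaks and 3, 3, 2 and 3 genes without S1, S2, S9 and S10. With library size alone 44 peaks rose and 24 fell at 4 h, 34 and 19 at 1 d, 17 and 4 at 3 d, and 11 and 3 after rosiglitazone. With library sizes from promoter-window peaks, a scaling chosen after the data were seen, 48 rose and 13 fell at 4 h, 41 and 14 at 1 d, 22 and 3 at 3 d, and 11 and 3 after rosiglitazone. Gene calls with library size alone were 9 higher and 5 lower at 4 h, 8 and 8 at 1 d, 2 and 2 at 3 d, and 5 and 2 after rosiglitazone. With promoter-window library sizes they were 10 and 2, 10 and 4, 5 and 1, and 3 and 2. Under this scaling more genes rose than fell at each forskolin time, but it also moved the median of all peaks up, as given below. The shares of all peaks and genes called under the other scalings are not given here. Of the genes that rose, 5 of 7 at 4 h, 2 of 3 at 1 d, 2 of 2 at 3 d and 2 of 2 after rosiglitazone kept their call under each of the 4 other scalings. Of those that fell, 2 of 16 did at 4 h (Slc25a10 and Slc25a42), 4 of 16 at 1 d (Slc25a10, Slc25a11, Slc25a32 and Slc25a42), 1 of 5 at 3 d (Slc25a54) and 2 of 4 after rosiglitazone (Slc25a24 and Slc25a54). Every other fall of a gene against control lost its call under at least 1 of these scalings. This holds also where only left-out libraries are named below. Offsets fitted to the level gave 8 and 6 genes at 4 h, 9 and 8 at 1 d, 3 and 2 at 3 d and 5 and 2 after rosiglitazone, and 9 higher and 10 lower peaks at 3 d.

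**Figure D1:**
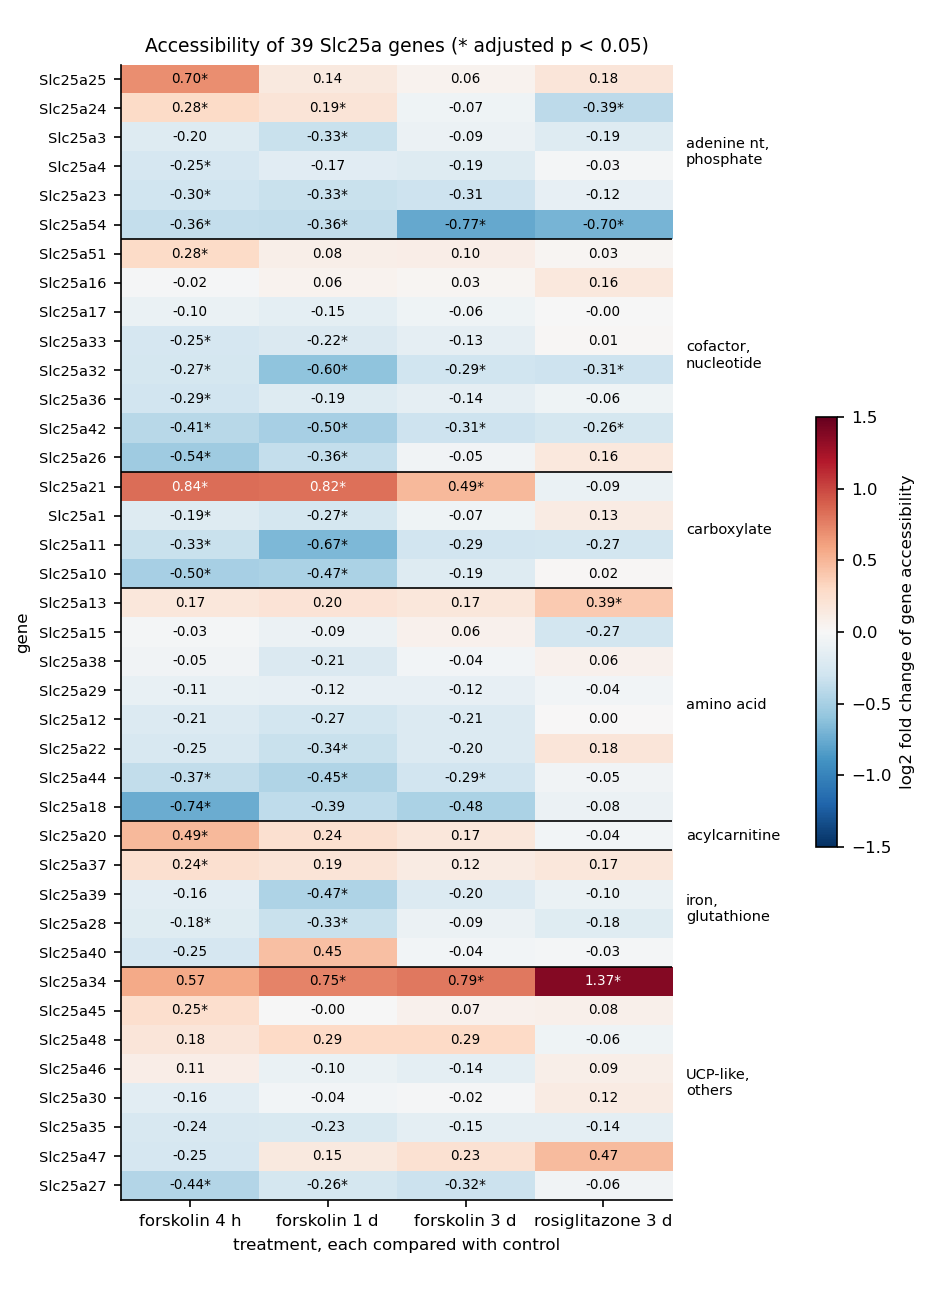
Log2 fold change of gene accessibility for 39 Slc25a genes with peaks (rows, by substrate group) in each treatment minus control (columns); colour gives the value and an asterisk marks an adjusted p under 0.05. Slc25a21 and Slc25a25 stand out as higher at 4 h and Slc25a34 as higher after rosiglitazone. Most Slc25a genes, cofactor carriers among them, are below 0 at 4 h and 1 d, where the median of all genes is −0.12 and −0.14. The value of Slc25a33 at 1 d turns to 0.06 with promoter-window library sizes.

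The adenine nucleotide and phosphate carriers bring ADP, ATP and phosphate across the inner membrane. Of 8 listed genes 6 had peaks, and 2 rose and 3 fell at 4 h, 1 rose and 3 fell at 1 d, 1 fell at 3 d and 2 fell after rosiglitazone. Their median log2 fold change was −0.22 at 4 h, −0.25 at 1 d, −0.14 at 3 d and −0.15 after rosiglitazone. The counts of this and the later groups stand beside the shares of all genes tested. Of those, 12.1% rose and 23.2% fell at 4 h, and 9.33% and 28.5% at 1 d. At 3 d the shares were 5.22% and 10.4%, and after rosiglitazone 2.37% and 5.14%. The gene that moved most at 4 h was Slc25a25 (chromosome 2, 32414487 to 32451470, gene ID 227731), a calcium-regulated ATP-Mg/phosphate carrier. Its accessibility was 86.4 and 80.9 CPM after rosiglitazone, and along the forskolin series it was 69.5 and 77.96 CPM in control, 120.0 and 119 at 4 h, 83.2 and 79.95 at 1 d and 82.9 and 70.1 at 3 d. Both 4 h libraries were above all 8 others, the 1 d and rosiglitazone libraries lay above both controls, and the 3 d libraries overlapped them. The gene rose at 4 h (log2 fold change 0.70, SE 0.09, adjusted p = 5.44e-06). Its change was 0.14 at 1 d, 0.06 at 3 d and 0.18 after rosiglitazone, with no call.

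Slc25a25 had 9 peaks, and 5 of them rose at 4 h. P63732 (chromosome 2, 32423578 to 32424565) covers the promoter window printed above, which belongs to a start inside the gene. It had 49.4 and 48.4 CPM at 4 h, against 29.1 and 32.04 CPM in control (log2 fold change 0.68, SE 0.12, adjusted p = 1.14e-05). It had 30.8 and 30.5 CPM at 1 d and 30.7 and 26.3 CPM at 3 d, values that overlapped the controls. The other 2 promoter windows of the gene held no member peak. Another start inside the gene has 1 of these windows, but distances of Slc25a25 peaks are given from the start of the printed window. P63733, 4.1 kb upstream of the same start, had 13.6 and 13.3 CPM in control, 32.8 and 30.9 at 4 h, 21.4 and 20.6 at 1 d and 20.3 and 19.8 at 3 d. Every forskolin library was above both controls and the 4 h libraries were above the later ones, with log2 fold changes of 1.24 (SE 0.14, adjusted p = 2.20e-11) at 4 h, 0.64 (SE 0.14, adjusted p = 4.15e-04) at 1 d and 0.58 (SE 0.14, adjusted p = 0.00299) at 3 d. The call at 3 d was lost without S2. P63734, 13.1 kb upstream, rose by 0.82 (SE 0.16, adjusted p = 4.42e-05) at 4 h. P63735, 13.7 kb upstream, also rose, with 97 counts over the 4 h libraries and 19 over the controls (log2 fold change 1.81, SE 0.46, adjusted p = 0.00142).

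A weaker Slc25a25 peak went the other way. P63736, 16.3 kb upstream of the start of the printed window, had 2.48 and 2.90 CPM after rosiglitazone, and along the forskolin series 4.74 and 3.22 CPM in control, 0.329 and 1.27 at 4 h, 0.224 and 1.32 at 1 d and 0.531 and 0.633 at 3 d. All 6 forskolin libraries were below the controls and the rosiglitazone libraries, although the summed counts were low (26, 30 and 17 at 4 h, 1 d and 3 d, against 86 in control). It fell by 2.27 on the log2 scale at 4 h, by 2.31 at 1 d and by 2.76 at 3 d (adjusted p = 9.77e-05, 1.03e-04 and 4.05e-05). At the far end of the gene P63729 had 45 counts over the 4 h libraries and 4 over the controls (log2 fold change 2.94, SE 0.92, adjusted p = 0.00964). That call was lost without S1 or without S3.

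Slc25a24, another calcium-regulated ATP-Mg/phosphate carrier, had 67.8 and 70.3 CPM after rosiglitazone, and along the forskolin series 92.2 and 88.7 CPM in control, 111 and 109 at 4 h, 104 and 102 at 1 d and 87.4 and 84.9 at 3 d. Both rosiglitazone libraries were below all other libraries, and both 4 h libraries were above the controls. It rose by 0.28 (SE 0.08, adjusted p = 0.00675) at 4 h and by 0.19 (SE 0.08, adjusted p = 0.0489) at 1 d, and its change after rosiglitazone was −0.39 (SE 0.08, adjusted p = 0.00352). The 4 h call was lost without S2 or S3, the 1 d call without any of 8 libraries, and the rosiglitazone call without S9. Its peak P76180, 27.9 kb beyond the gene, fell after rosiglitazone to 1.19 ± 0.323 CPM, against 3.37 ± 0.486 in control (SD, n = 2; log2 fold change −1.49, SE 0.35, adjusted p = 0.00293); the call was lost without S2 or S9. P76178, 9.30 kb beyond the gene, rose at 1 d (log2 fold change 1.35, SE 0.40, adjusted p = 0.00884), a call lost without S1.

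Slc25a54, a gene of the same list, had 1 peak, P76173, 20.8 kb upstream. Its level was 19.1 and 20.99 CPM after rosiglitazone, and along the forskolin series 31.7 and 33.4 CPM in control, 28.1 and 22.6 at 4 h, 26.2 and 24.4 at 1 d and 20.1 and 18.04 at 3 d. All 3 d libraries, with either agent, were below the controls. By gene accessibility it changed by −0.77 (SE 0.13, adjusted p = 4.60e-04) at 3 d of forskolin and by −0.70 (SE 0.12, adjusted p = 0.00157) after rosiglitazone, and both calls remained whichever library was left out. The changes of −0.36 at 4 h and −0.36 at 1 d also passed (adjusted p = 0.0241 and 0.0205) but were lost under 3 other scalings.

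The ADP/ATP exchanger Slc25a4 had 85.5 and 94.3 CPM after rosiglitazone, and along the forskolin series 92.2 and 91.4 CPM in control, 77.1 and 77.6 at 4 h, 83.4 and 79.9 at 1 d and 73.8 and 87.6 at 3 d. Both 4 h libraries were below both controls (log2 fold change −0.25, SE 0.09, adjusted p = 0.0341), a call lost without any 1 of S1 to S4, and no other treatment gave a call. Its peak P108294, 25.8 kb upstream, rose after rosiglitazone, with 8.74 and 7.04 CPM against 2.73 and 4.38 CPM in control (log2 fold change 1.13, SE 0.26, adjusted p = 0.00226). That call was lost without S1 or S9. The phosphate carrier Slc25a3 fell at 1 d (log2 fold change −0.33, SE 0.09, adjusted p = 0.00884; lost without S1 or S5), and Slc25a23, a further ATP-Mg/phosphate carrier, had changes of −0.30 at 4 h and −0.33 at 1 d that passed and were lost under 3 other scalings.

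The cofactor, coenzyme and nucleotide carriers had 9 members, and 1 rose and 6 fell at 4 h, 5 fell at 1 d, 2 fell at 3 d and 2 fell after rosiglitazone. Their median was −0.25 at 4 h, −0.22 at 1 d, −0.13 at 3 d and −0.00 after rosiglitazone. Over all genes tested, 23.2% fell at 4 h and 28.5% at 1 d, with medians of −0.12 and −0.14. The coenzyme A carrier gene Slc25a42 (chromosome 8, 70184340 to 70212281) had 183 and 190.2 CPM after rosiglitazone, and along the forskolin series 217 and 231 CPM in control, 164 and 172 at 4 h, 157 and 159 at 1 d and 163 and 199.8 at 3 d. All treated libraries were below both controls. It changed by −0.41 (SE 0.07, adjusted p = 2.49e-04) at 4 h, −0.50 (SE 0.07, adjusted p = 5.56e-05) at 1 d, −0.31 (SE 0.07, adjusted p = 0.00845) at 3 d and −0.26 (SE 0.07, adjusted p = 0.0330) after rosiglitazone. The calls at 4 h and 1 d held without each library in turn and under each scaling, the 3 d call was lost without S2 or S7, and the rosiglitazone call was lost without any of 8 libraries. The 3 d and rosiglitazone calls were also lost under at least 1 other scaling. Most of the signal came from P109140 over its promoter window, with 159 and 169 CPM at 4 h, against 207 and 222 CPM in control (log2 fold change −0.39, SE 0.11, adjusted p = 0.00528). Its sign turned with offsets fitted to the peak level, which gave 0.02 at 4 h and 0.05 at 1 d. The small peak P109138 inside the gene fell to 25 counts at 4 h, against 79 in control (log2 fold change −2.17, SE 0.43, adjusted p = 4.75e-05), and was also lower at 1 d (−1.40; lost without S2 or S5) and after rosiglitazone (−1.29; lost without S1, S2, S9 or S10).

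Slc25a26, the S-adenosylmethionine carrier, had 29.3 and 29.02 CPM after rosiglitazone, and along the forskolin series 26.2 and 25.9 CPM in control, 17.6 and 18.4 at 4 h, 20.5 and 20.1 at 1 d and 23.8 and 26.7 at 3 d. The 4 h libraries were lowest, and the 3 d libraries spanned the controls. The gene fell at 4 h (log2 fold change −0.54, SE 0.12, adjusted p = 0.00129) and at 1 d (−0.36, adjusted p = 0.0156). The 4 h call was lost with promoter-window library sizes. Leaving out S1, S2, S5 or S6 ended the 1 d call, as did 3 other scalings. P97621 inside the gene fell with 21 counts at 4 h and 14 at 1 d, against 52 in control (−1.82 and −2.63, adjusted p = 0.00423 and 1.72e-04). Slc25a32, which carries folate and flavin cofactor, fell at 1 d to 71.9 and 84.1 CPM, against 113 and 123 CPM in control (log2 fold change −0.60, SE 0.09, adjusted p = 9.42e-05). Its smaller changes at 4 h (−0.27), at 3 d (−0.29) and after rosiglitazone (−0.31) passed too, but each was lost without several libraries and under 3 other scalings.

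The pyrimidine nucleotide carrier Slc25a33 fell at 4 h (−0.25, adjusted p = 0.0108) and 1 d (−0.22, adjusted p = 0.0192), and its change at 1 d was 0.06 with promoter-window library sizes. Without S2 both calls were lost, as was the 4 h call without S3 or S4 and the 1 d call without S5. Its distal peak P84758, 17.4 kb upstream, had 2.75 and 2.47 CPM after rosiglitazone, and along the forskolin series 2.62 and 2.89 CPM in control, 0.526 and 1.09 at 4 h, 1.73 and 1.68 at 1 d and 2.65 and 3.80 at 3 d. The 4 h libraries were below all others in that peak (log2 fold change −1.75, SE 0.42, adjusted p = 7.08e-04), and the 3 d libraries overlapped the controls. Slc25a36, a pyrimidine nucleotide carrier whose CRE-bearing window is printed above, fell at 4 h (log2 fold change −0.29, SE 0.10, adjusted p = 0.0264; lost without any 1 of S1 to S4), the direction opposite to Slc25a25. Its promoter peak P118047 changed by −0.29 at 4 h (adjusted p = 0.0593).

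Slc25a51, the mitochondrial NAD+ carrier, rose at 4 h by gene accessibility (log2 fold change 0.28, SE 0.11, adjusted p = 0.0454), a call lost without any of 8 libraries and reversed to −0.12 when only peaks within 1 kb of a gene end were summed. Its distal peaks moved far more. P79952 (chromosome 4, 45413673 to 45414279), 5.1 kb from the gene, had 7.64 and 6.79 CPM after rosiglitazone, and along the forskolin series 3.53 and 3.22 CPM in control, 11.05 and 10.7 at 4 h, 8.72 and 8.96 at 1 d and 8.67 and 8.15 at 3 d. All 8 treated libraries were above both controls. It rose under each treatment (1.69, 1.39 and 1.32 for forskolin at 4 h, 1 d and 3 d, and 1.10 for rosiglitazone, SE 0.22 to 0.23, adjusted p = 8.78e-04 or lower). These 4 calls held in every alternative. P79949 inside the gene rose at 4 h (1.52, adjusted p = 5.76e-06), as did the weak P79948 with 81 counts at 4 h, against 10 in control (2.48, adjusted p = 1.70e-04).

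At Slc25a16, a carrier linked to coenzyme A transport, the gene was not called, yet P11588, 6.1 kb upstream, had 14.5 and 12.7 CPM after rosiglitazone, and along the forskolin series 7.87 and 5.53 CPM in control, 10.2 and 12.2 at 4 h, 13.7 and 13.2 at 1 d and 15.2 and 12.2 at 3 d. All treated libraries were above both controls (0.76 at 4 h, 1.02 at 1 d, 1.06 at 3 d and 1.03 after rosiglitazone), and of these calls only that at 4 h was lost, without S2. Slc25a17, a peroxisomal carrier of coenzyme A and related cofactors, was not called as a gene. Within it P43382 fell at 1 d to 1.73 and 1.12 CPM, against 4.44 and 4.29 CPM in control (log2 fold change −1.62, SE 0.34, adjusted p = 2.58e-04).

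The carboxylate and keto acid carriers had 4 members: 1 rose and 3 fell at 4 h and at 1 d, and 1 rose at 3 d. Over these genes the median was −0.26, −0.37 and −0.13 at 4 h, 1 d and 3 d of forskolin and −0.04 after rosiglitazone. The member that rose was Slc25a21 (chromosome 12, 56712634 to 57197472), the oxodicarboxylate carrier of lysine and tryptophan breakdown. It had 31.4 and 30.9 CPM after rosiglitazone, and along the forskolin series 37.1 and 29.6 CPM in control, 62.6 and 56.6 at 4 h, 60.5 and 57.3 at 1 d and 50.3 and 42.7 at 3 d. All 6 forskolin libraries were above the controls and the rosiglitazone libraries. The gene rose by 0.84 (SE 0.11, adjusted p = 8.34e-06) at 4 h, 0.82 (SE 0.11, adjusted p = 2.63e-05) at 1 d and 0.49 (SE 0.11, adjusted p = 0.00681) at 3 d, and the 3 d call was lost without S2 or S7. This rise came from peaks away from the gene ends, since peaks within 1 kb of an end gave −0.33 at 4 h, −0.49 at 1 d and −0.11 at 3 d.

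P26333 (chromosome 12, 56804361 to 56804913) lies inside the gene, 356 kb downstream of its nearest annotated start, which is an internal one. It had 4.27 and 3.09 CPM after rosiglitazone, and along the forskolin series 3.84 and 3.22 CPM in control, 13.1 and 9.66 at 4 h, 11.6 and 12.7 at 1 d and 10.9 and 7.91 at 3 d. The forskolin libraries did not overlap the other 4. The peak rose by 1.70 (SE 0.23, adjusted p = 6.98e-09) at 4 h, 1.79 (SE 0.22, adjusted p = 2.71e-09) at 1 d and 1.44 (SE 0.23, adjusted p = 3.83e-06) at 3 d, in every alternative. P26337 lay 140 kb from its nearest annotated start. It held 6 counts over the controls, 122 at 4 h, 51 at 1 d and 22 at 3 d. It rose at 4 h by 3.77 (SE 0.60, adjusted p = 6.51e-07). P26334, P26340 and P26346 rose at 4 h too (1.02, 1.00 and 2.02), and the first of these calls was lost without S2. P26338 fell at 4 h with 4 counts, against 16 in control (−2.49, adjusted p = 0.0449), a call lost without any of 7 libraries.

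Slc25a10, the dicarboxylate carrier that exchanges malate and succinate for phosphate, had 126 and 134 CPM after rosiglitazone, and along the forskolin series 121 and 135 CPM in control, 87.8 and 93.4 at 4 h, 86.3 and 98.03 at 1 d and 104 and 121 at 3 d. The 4 h and 1 d libraries were below both controls, and 1 of the 3 d libraries was level with the lower control. It changed by −0.50 (SE 0.09, adjusted p = 2.14e-04) at 4 h and −0.47 (SE 0.09, adjusted p = 4.18e-04) at 1 d. Both calls held without each library in turn and under each scaling. Inside its last part P23990 (chromosome 11, 120500305 to 120501296), 9.0 kb from the start, had 21.3 and 18.7 CPM after rosiglitazone, and along the forskolin series 17.9 and 18.005 CPM in control, 5.19 and 6.52 at 4 h, 11.5 and 13.2 at 1 d and 16.5 and 17.6 at 3 d. The 4 h libraries were lowest, and the peak fell (log2 fold change −1.61, SE 0.17, adjusted p = 1.78e-12). At 3 d both values lay just below the controls (−0.08, adjusted p = 0.791). P23992, 21.3 kb from the start, fell at 4 h (−0.93), 1 d (−1.07) and 3 d (−0.96), and the 4 h and 3 d calls were lost without S2.

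The oxoglutarate/malate carrier Slc25a11 had a single peak, which lies in another protein-coding gene as well, so its reads cannot be told apart between them. It fell at 1 d to 31.6 and 33.5 CPM, against 46.9 and 56.7 CPM in control (log2 fold change −0.67, SE 0.11, adjusted p = 1.18e-04), and at 4 h (−0.33, adjusted p = 0.0194; lost without S2 or S3). The citrate carrier Slc25a1 fell at 4 h (−0.19, adjusted p = 0.0446) and 1 d (−0.27, adjusted p = 0.00784), but with promoter-window library sizes these values were 0.03 and 0.01. The 4 h call was lost without any 1 of S2 to S6, S9 or S10, and the 1 d call without S2 or S5. P46085, 6.3 kb upstream of it, had 1.83 and 0.554 CPM at 3 d of forskolin against 2.42 and 3.06 CPM in control (log2 fold change −1.13, SE 0.40, adjusted p = 0.0447); S8 held 7 counts and S7 31. That call was lost without any of 6 libraries. After rosiglitazone P46090, 22.2 kb upstream, had 74 counts against 12 in control (log2 fold change 2.15, SE 0.59, adjusted p = 0.0137), a call lost without S1, S9 or S10.

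Among the amino acid carriers 8 of 9 listed genes had peaks, and 2 fell at 4 h and at 1 d, 1 fell at 3 d and 1 rose after rosiglitazone. Their median was −0.16 at 4 h, −0.24 at 1 d, −0.16 at 3 d and −0.02 after rosiglitazone. Slc25a44, the branched-chain amino acid carrier known from brown fat, had 132 and 129.8 CPM after rosiglitazone, and along the forskolin series 139.7 and 132 CPM in control, 103 and 107 at 4 h, 103 and 95.7 at 1 d and 109 and 113 at 3 d. All forskolin libraries were below both controls, with changes of −0.37 (SE 0.07, adjusted p = 5.95e-04) at 4 h, −0.45 (SE 0.07, adjusted p = 1.28e-04) at 1 d and −0.29 (SE 0.07, adjusted p = 0.0108) at 3 d. All 3 calls were lost with promoter-window library sizes, and the 3 d call without S1. The glutamate carrier Slc25a18 fell at 4 h (log2 fold change −0.74, SE 0.28, adjusted p = 0.0429; lost without any 1 of S2 to S6), and its paralogue Slc25a22 at 1 d (−0.34, adjusted p = 0.0114; lost without S1 or S6).

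The member peak with the largest rise at 1 d and 3 d lay in Slc25a15 (chromosome 8, 22375550 to 22398621), the ornithine carrier of the urea cycle and polyamine metabolism. P107065 (chromosome 8, 22390843 to 22391462) lay 7.1 kb downstream of its nearest annotated start. It had 0.688 and 1.48 CPM after rosiglitazone. Along the forskolin series it had 1.82 and 0.578 CPM in control, 12.4 and 10.6 at 4 h, 15.1 and 14.2 at 1 d and 15.1 and 15.3 at 3 d. In counts the controls held 18 and 7, the 4 h libraries 188 and 176, and the 3 d libraries 256 and 194. All 6 forskolin libraries lay far above the other 4, which overlapped each other. The rise was 3.32 (SE 0.28, adjusted p = 5.63e-16) at 4 h, 3.67 (SE 0.27, adjusted p = 6.35e-18) at 1 d and 3.73 (SE 0.28, adjusted p = 3.09e-17) at 3 d, while the rosiglitazone value was −0.05 (adjusted p = 0.966). The promoter peak of the same gene, P107066, fell at 1 d (log2 fold change −0.47, SE 0.12, adjusted p = 0.00255; lost without S2). Its values at 4 h and 3 d were −0.30 and −0.26 (adjusted p = 0.0527 and 0.150), and the third peak, P107064, was not called. The gene as a whole was not called either (−0.03, −0.09 and 0.06 at 4 h, 1 d and 3 d).

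The aspartate/glutamate carrier Slc25a13 rose after rosiglitazone to 41.9 and 45.99 CPM, against 33.7 and 33.3 CPM in control (log2 fold change 0.39, SE 0.10, adjusted p = 0.0180), a call lost without S1, S2, S9 or S10. Its intragenic peak P93470 fell at 4 h to 0.789 and 1.15 CPM, against 3.94 and 2.89 CPM in control (log2 fold change −1.79, SE 0.40, adjusted p = 2.74e-04), and at 1 d (−1.31; lost without S1 or S6). P93468, another weak peak in it, had 10 counts at 4 h and 33 in control (−2.21, adjusted p = 0.00713; lost without S2 or S4). Its paralogue Slc25a12 was not called, with −0.21 at 4 h, −0.27 at 1 d, −0.21 at 3 d and 0.00 after rosiglitazone. At Slc25a29, a basic amino acid carrier that was not called as a gene, P28756 rose at 4 h to 10.9 and 11.95 CPM, against 6.86 and 4.38 CPM in control (log2 fold change 1.04, SE 0.21, adjusted p = 7.95e-05).

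Slc25a20, the carnitine/acylcarnitine exchanger that brings fatty acyl groups to the matrix for oxidation, was the only listed acylcarnitine carrier. It had 23.5 and 26.2 CPM after rosiglitazone, and along the forskolin series 27.7 and 23.5 CPM in control, 38.6 and 33.2 at 4 h, 29.6 and 30.5 at 1 d and 26.4 and 31.3 at 3 d. Both 4 h libraries were above both controls (log2 fold change 0.49, SE 0.12, adjusted p = 0.00383). That call was lost without S2 or S3. The later changes were 0.24 at 1 d and 0.17 at 3 d (adjusted p = 0.130 and 0.352), and −0.04 after rosiglitazone. Within the gene P118646 (chromosome 9, 108679385 to 108679631), 17.4 kb from the start, held 14 counts after rosiglitazone, and along the forskolin series 7 over the controls, 88 at 4 h, 71 at 1 d and 47 at 3 d. It rose by 3.11 (SE 0.61, adjusted p = 3.83e-05) at 4 h, 2.57 (SE 0.63, adjusted p = 0.00143) at 1 d and 2.28 (SE 0.65, adjusted p = 0.0109) at 3 d. The 1 d call was lost without S1 and the 3 d call without S1 or S7. P118648 at the 3′ end of the gene had 4.85 and 3.72 CPM in control, 13.02 and 9.12 at 4 h, 5.76 and 6.72 at 1 d and 4.78 and 3.48 at 3 d. It was highest at 4 h (log2 fold change 1.38, SE 0.24, adjusted p = 3.09e-06), and the 3 d libraries lay around the controls (−0.02).

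Of the 4 iron and glutathione carriers 1 rose and 1 fell at 4 h, and 2 fell at 1 d. Their median was −0.17, −0.07 and −0.07 at 4 h, 1 d and 3 d of forskolin and −0.07 after rosiglitazone. The mitoferrin gene Slc25a37, which imports iron for haem and iron-sulphur cluster synthesis, rose at 4 h (log2 fold change 0.24, SE 0.08, adjusted p = 0.0224; lost without any 1 of S1 to S4). Its intragenic peak P37399 rose at 4 h and 1 d, with 14.005 and 14.4 CPM and 14.8 and 14.9 CPM, against 8.28 and 8.67 CPM in control (0.74 and 0.81, adjusted p = 3.83e-04 and 1.62e-04). P37396 of that gene was lower at 3 d of forskolin (−0.81, adjusted p = 0.0239; lost without S2 or S8). The other mitoferrin gene, Slc25a28, fell at 1 d (log2 fold change −0.33, SE 0.07, adjusted p = 7.97e-04) and at 4 h (−0.18, adjusted p = 0.0459). The 4 h call was lost without any of 8 libraries, its value was 0.05 with promoter-window library sizes, and the 1 d call was lost with them. Downstream of it P60799 had 2.62 and 3.22 CPM in control, 3.02 and 3.08 at 4 h, 6.93 and 5.75 at 1 d and 8.32 and 4.67 at 3 d. The 1 d and 3 d libraries were above the control and 4 h libraries, with changes of 0.05 at 4 h, 1.10 (SE 0.28, adjusted p = 0.00199) at 1 d and 1.16 (SE 0.28, adjusted p = 0.00213) at 3 d, and the 3 d call was lost without S7. The glutathione carrier Slc25a39 fell at 1 d (log2 fold change −0.47, SE 0.09, adjusted p = 8.58e-04; lost with promoter-window library sizes), while P22479, 11.5 kb upstream of it, rose after rosiglitazone (log2 fold change 1.29, SE 0.30, adjusted p = 0.00335; lost without S2).

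The last group holds uncoupling-protein-like genes, orphans and the outer-membrane member Slc25a46. Of its 8 tested genes 1 rose and 1 fell at each forskolin time, and 1 rose after rosiglitazone. Slc25a34, an orphan carrier with 1 peak, P84432 (chromosome 4, 141623639 to 141624163), over the promoter window printed above, had 10.1 and 9.20 CPM after rosiglitazone, and along the forskolin series 3.63 and 3.80 CPM in control, 5.39 and 5.68 at 4 h, 5.25 and 7.23 at 1 d and 6.61 and 6.25 at 3 d. The rosiglitazone libraries were highest, and all treated libraries were above both controls. By gene accessibility the rise was 1.37 (SE 0.22, adjusted p = 8.25e-04) after rosiglitazone, in every alternative. Under forskolin it was 0.57 at 4 h (adjusted p = 0.0635), 0.75 (SE 0.23, adjusted p = 0.0142) at 1 d and 0.79 (SE 0.23, adjusted p = 0.0267) at 3 d. Its 1 d call was lost without S1, S2 or S6 and the 3 d call without S1, S2 or S7. Slc25a27, which encodes an uncoupling-protein-like carrier, fell at 4 h (log2 fold change −0.44, SE 0.10, adjusted p = 0.00205; lost with promoter-window library sizes), at 1 d (−0.26; lost without any of 7 libraries) and at 3 d (−0.32; lost without any of 8). Slc25a45 rose at 4 h (log2 fold change 0.25, SE 0.10, adjusted p = 0.0498), a call lost without any of 7 libraries. At Slc25a48, not called as a gene, P32177 rose at 4 h to 5.13 and 4.71 CPM, against 1.82 and 1.32 CPM in control (log2 fold change 1.66, SE 0.36, adjusted p = 2.02e-04).

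**Figure D2:**
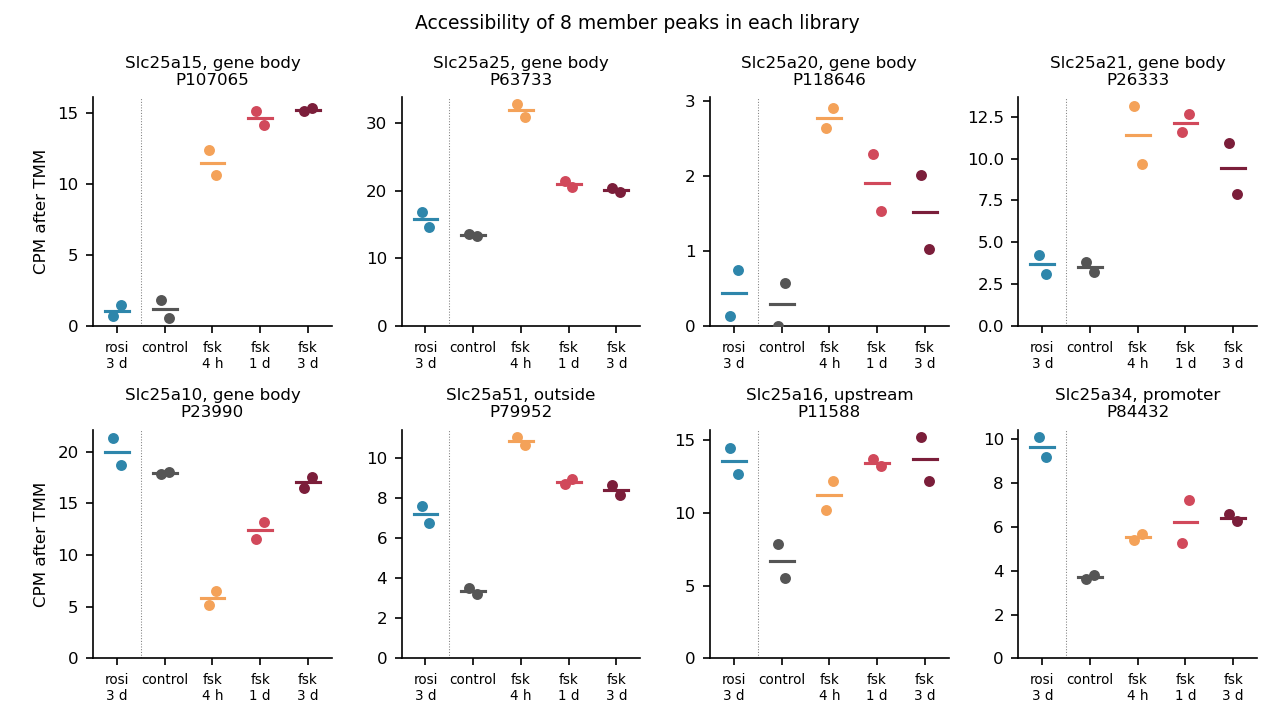
CPM after TMM scaling (vertical axis) of 8 Slc25a peaks in each library, with 1 point per library and a line at the mean of the 2 libraries; the rosiglitazone group stands left of control and the 3 forskolin times right of it. The Slc25a15 peak and the Slc25a21 peak are high in all 6 forskolin libraries, the Slc25a10 peak is low at 4 h, and the Slc25a34 peak is highest after rosiglitazone.

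At the promoters the members were read beside all promoters. A promoter window of their own gene was covered by 28 Slc25a peaks at 27 genes, and a window of any gene by 11300 peaks in all. Slc25a peaks that cover a window of another gene only are neither among the 28 nor among those away from promoter windows. Of the 28, 3 rose and 6 fell at 4 h (3.54% and 26.7% of all promoter-window peaks), 2 rose and 11 fell at 1 d (2.46% and 35.5%), 1 rose and 1 fell at 3 d (1.73% and 8.13%), and 1 rose and 1 fell after rosiglitazone (1.10% and 4.11%). Their median was −0.20 at 4 h, −0.26 at 1 d, −0.16 at 3 d and −0.07 after rosiglitazone, beside −0.23, −0.28, −0.17 and −0.10 for all promoter-window peaks. Away from promoter windows 35 of 164 tested Slc25a peaks rose and 27 fell at 4 h (21.3% and 16.5%), while 20.1% of all 107654 such peaks rose and 11.5% fell. Of the 91 inside the genes 24 rose and 18 fell, and of the 73 outside 11 rose and 9 fell. The shares of all peaks inside and outside genes are not given here, so these counts are not compared. The fall of promoters depended on the scaling: the median at 4 h was −0.10 for Slc25a promoters and −0.13 for all with library size alone, −0.01 and −0.08 with offsets fitted to the level, and 0.02 and −0.01 with promoter-window library sizes. That last scaling moved the median of all peaks to 0.22 at 4 h, 0.32 at 1 d and 0.19 at 3 d, and library size alone to 0.10, 0.19 and 0.11, so a fall of a promoter is a fall relative to the bulk of peaks.

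**Figure D3:**
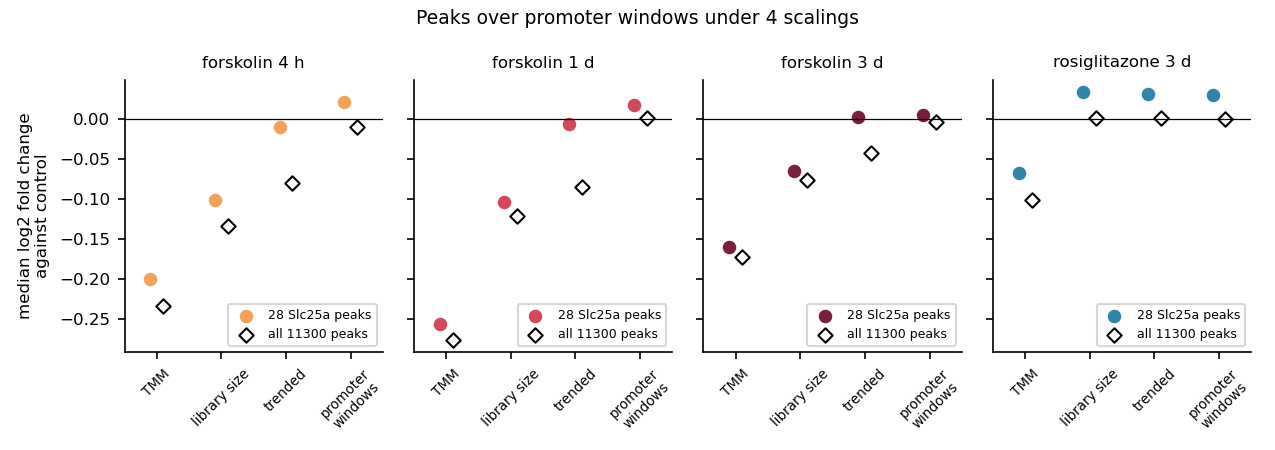
Median log2 fold change (vertical axis) of the 28 Slc25a promoter-window peaks and of all 11300 promoter-window peaks for each treatment minus control, under 4 scalings. The 2 medians lie close together in each case, and both approach 0 with promoter-window library sizes.

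Between forskolin times, 9 Slc25a peaks were higher and 15 lower at 3 d than at 4 h (4.38% and 6.74% of all peaks), and by gene accessibility 2 were higher and 4 lower (3.65% and 5.05% of all genes). Slc25a25 was lower at 3 d (−0.64 (SE 0.09, adjusted p = 8.24e-05)), as were its promoter peak P63732 (−0.78 (SE 0.12, adjusted p = 3.17e-06)) and P63733 (−0.67 (SE 0.13, adjusted p = 1.36e-04)). P118648 of Slc25a20 was lower as well (−1.40 (SE 0.23, adjusted p = 5.74e-06)), and so was P26337 of Slc25a21 (−2.36 (SE 0.48, adjusted p = 3.05e-04)). In the other direction P23990 of Slc25a10 (1.53 (SE 0.16, adjusted p = 1.05e-10)), P84758 of Slc25a33 (1.96 (SE 0.40, adjusted p = 3.23e-04)) and P60799 of Slc25a28 (1.11 (SE 0.26, adjusted p = 0.00224)) were higher at 3 d, the last call being lost without S7. For P107065 of Slc25a15 the difference was 0.41 (SE 0.18, adjusted p = 0.141). Without S3 9 peaks and 1 gene were called, and without S4 or S8 15 peaks in each case.

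At 1 d against 4 h, 5 Slc25a peaks were higher and 7 lower (2.58% and 2.99% of all peaks), and 2 genes were lower and none higher by edgeR (3.32% and 2.01% of all genes); 1 gene was higher at an unadjusted p under 0.05 and none by DESeq2. The lower genes were Slc25a25 (−0.55 (SE 0.09, adjusted p = 6.33e-04)) and Slc25a32 (−0.33 (SE 0.09, adjusted p = 0.0374); lost without any of 7 libraries). P23990 of Slc25a10 was higher at 1 d (1.08 (SE 0.17, adjusted p = 6.02e-06)). Without S3, S4, S5 or S6 the count of peaks was 5, 5, 4 and 4, and the count of genes was 1 without any 1 of S1 to S6 or S9, 5 without S7 and 7 without S8. Between 3 d and 1 d no Slc25a peak was called in either direction by edgeR (0.109% and 0.0773% of all peaks were) and no gene (0.0117% and 0.00%). At an unadjusted p under 0.05 there were 15 peaks higher and 11 lower and 11 genes higher and 3 lower, and DESeq2 called none. Without S7 the count was 10 peaks and 16 genes, 12 higher and 4 lower.

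The comparison of 3 d of forskolin with 3 d of rosiglitazone set both browning agents side by side. Of the 196 peaks 17 were higher and 17 lower after forskolin (12.9% and 8.82% of all peaks), and by gene accessibility 3 were higher and 3 lower (8.40% and 8.39% of all genes). With promoter-window library sizes the peaks split into 18 higher and 10 lower, and without S7, S9 or S10 21 peaks in all were called in each case. The higher genes were Slc25a21 (0.58 (SE 0.11, adjusted p = 8.31e-04)), Slc25a24 (0.32 (SE 0.08, adjusted p = 0.00558)) and Slc25a15 (0.33 (SE 0.09, adjusted p = 0.0180); lost without S8, S9 or S10). The lower genes were Slc25a22 (−0.38 (SE 0.10, adjusted p = 0.00888); lost without S10), Slc25a44 (−0.24 (SE 0.07, adjusted p = 0.0255); lost without S7, S9 or S10) and Slc25a34 (−0.58 (SE 0.20, adjusted p = 0.0442); lost without any of 6 libraries). The count of genes was 11 without S8, 3 without S9 and 2 without S10.

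P107065 of Slc25a15 was higher after forskolin by 3.78 (SE 0.26, adjusted p = 2.77e-20), with 450 counts over the forskolin libraries and 34 over the rosiglitazone libraries. P26333 of Slc25a21 had 10.9 and 7.91 CPM after forskolin, against 4.27 and 3.09 CPM after rosiglitazone (log2 fold change 1.38, SE 0.22, adjusted p = 8.53e-07). P60802, 1.9 kb beyond Slc25a28, had 8.49 and 6.65 CPM after forskolin, against 3.72 and 3.33 CPM after rosiglitazone (log2 fold change 1.11, SE 0.23, adjusted p = 1.23e-04). P43385 in Slc25a17 had 69 counts after forskolin and 21 after rosiglitazone (log2 fold change 1.76, SE 0.42, adjusted p = 0.00103). These calls held without each library in turn. Of the weaker peaks, P93469 in Slc25a13 had 38 counts after forskolin and 5 after rosiglitazone (log2 fold change 2.92, SE 0.75, adjusted p = 0.00222; lost without S9), and P28759 near Slc25a47 had 41 and 6 (log2 fold change 2.69, SE 0.74, adjusted p = 0.00459; lost without S7 or S10).

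Lower after forskolin was P108294, the distal peak upstream of Slc25a4, with 3.30 and 3.72 CPM after forskolin against 8.74 and 7.04 CPM after rosiglitazone (log2 fold change −1.17, SE 0.25, adjusted p = 1.93e-04), and this call held without each library in turn. P63736 of Slc25a25 had 17 counts after forskolin and 83 after rosiglitazone (log2 fold change −2.21, SE 0.51, adjusted p = 6.77e-04; lost with DESeq2). P93475 in Slc25a13 had 8 and 47 counts (log2 fold change −2.45, SE 0.78, adjusted p = 0.0158), and P26338 in Slc25a21 8 and 40 (log2 fold change −2.21, SE 0.82, adjusted p = 0.0412). Both of these calls were lost without S7, S8, S9 or S10.

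**Figure D4:**
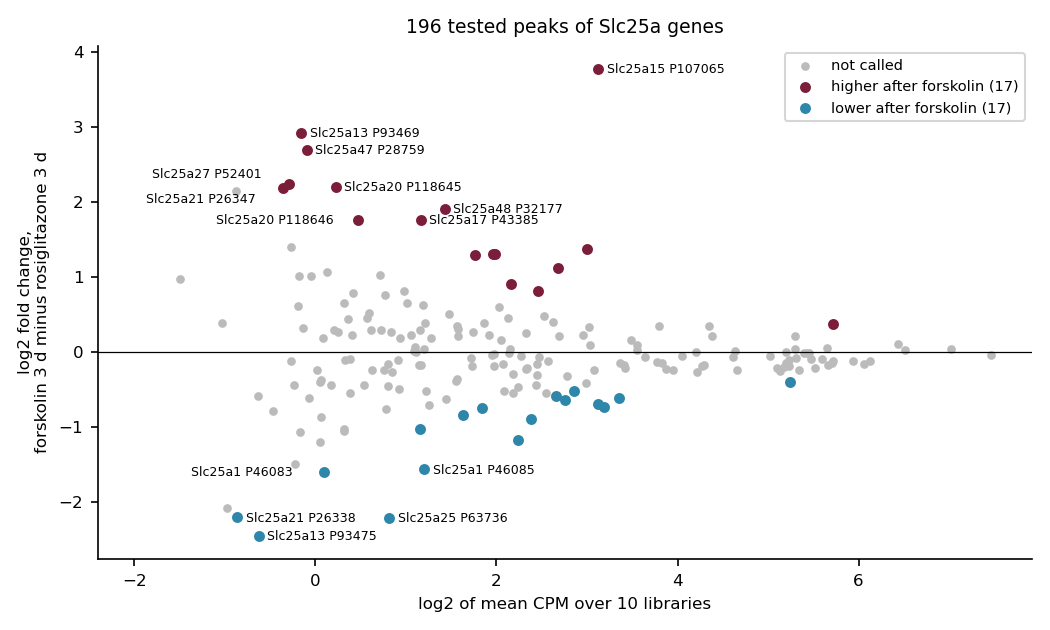
Log2 fold change of 3 d of forskolin minus 3 d of rosiglitazone (vertical axis) by the log2 of the mean CPM over 10 libraries (horizontal axis) for the 196 tested Slc25a peaks; coloured points have an adjusted p under 0.05, and those beyond 1.5 are named. P107065 of Slc25a15 stands above all others at 3.78, and most other named peaks are weak.

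Of 31 other genes of mitochondrial membrane transport, which are no members, 4 rose at 4 h (Cpt1a, Mcub, Ucp1 and Ucp3) and 8 fell, 2 rose (Mcub and Ucp1) and 11 fell at 1 d, 2 rose (Cpt1a and Ucp1) and 1 fell (Sfxn1) at 3 d, and 2 rose (Cpt1b and Ucp1) after rosiglitazone. Of all genes tested, 12.1% rose and 23.2% fell at 4 h, and 9.33% and 28.5% at 1 d. At 3 d the shares were 5.22% and 10.4%, and after rosiglitazone 2.37% and 5.14%. Calls on these 31 genes and on the marker genes were not checked with left-out libraries or other scalings. Among the genes of the carnitine system, Cpt1a, the enzyme that makes acylcarnitines at the outer membrane, rose at 4 h by 0.19 (SE 0.06, adjusted p = 0.0199). Cpt1a rose by 0.21 at 3 d as well. After rosiglitazone Cpt1b rose by 3.39 (SE 0.43), with a mean of 6.28 CPM against a low 0.583 CPM in control. Crat, the carnitine acetyltransferase, had a value of −0.19 at 4 h (adjusted p = 0.0607) and fell at 1 d (−0.39 (SE 0.08, adjusted p = 9.31e-04)), and Cpt2, which turns acylcarnitines back to acyl-CoA in the matrix, fell at 1 d (−0.29 (SE 0.11, adjusted p = 0.0353)) and had 0.17 at 4 h (adjusted p = 0.210). Ucp1, the uncoupling protein of brown fat, rose at 4 h by 0.77 (SE 0.23, adjusted p = 0.0130), at 1 d by 1.01 (SE 0.22, adjusted p = 0.00153), at 3 d by 1.01 (SE 0.23, adjusted p = 0.00544) and after rosiglitazone by 1.03 (SE 0.22, adjusted p = 0.00710).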

How the data were processed

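The authors deposited 1 table of raw counts per peak, without normalization, for 122984 peaks and 10 libraries, per the file headers. The submitters' processing notes name, without versions, deepTools, featureCounts, MACS2, Picard, SAMtools, Bowtie2 and fastp, and the builds GRCm38 and mm10. Not given in the sources used here are the pooling of libraries for peak calling, the counting of reads or fragments, the treatment of duplicates and any shift for the transposase. Columns S1 to S10 carry their group but do not tie to a numbered replicate of the labels.

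Gene bounds and promoter windows came from RefSeq GRCm38.p6. Exons, introns and UTRs were not at hand, and protein features were not used here. A peak is named P and its row number. The test was edgeR 4.0.16 (R 4.3.3) on the deposited counts (TMM factors of 0.927 to 1.053, filterByExpr, robust quasi-likelihood fit over all 10 libraries, Benjamini-Hochberg over 118954 peaks or 17085 genes), and the script was tested on simulated data. The biological coefficient of variation was 0.163 for peaks and 0.0646 for genes. SEs derive from the F statistic. CPM are counts scaled by TMM library sizes, and means are ± SD of 2 libraries.

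The members, gene lists, motifs and tests were chosen with earlier results of these data known. Named by rule were, for each treatment minus control, the called genes (at most the 8 of smallest adjusted p in each direction), the 5 largest changes of called peaks that did not overlap between groups in each direction, at most 1 a gene, and 16 fixed genes; 3 in each place were named for forskolin minus rosiglitazone. Outside this rule, Slc25a18, Slc25a23 and Slc25a36 and the peaks P107064, P107066, P109140, P11588, P118047, P118648, P23990, P26334, P26340, P26346, P28756, P32177, P37399, P43385, P60802, P63732, P63733, P63734, P63735, P79949 and P84758 were chosen after their values were seen. Alternatives were library size alone, DESeq2 size factors, offsets trended by level, promoter-window library sizes (added after seeing the data), no low-count filter, DESeq2 1.42.0, only the 2 groups compared, each library left out, other distance and overlap limits, and a 2-fold minimum. The values of 1 member gene are not reported here, although it is counted among the members.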

Additional observations from a re-analysis of the deposited data

Results flagged for a closer look

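For 6 Slc25a genes the change after forskolin differed between 3 d and 4 h, tested as the difference of gene accessibility with edgeR's quasi-likelihood F test. Slc25a25 differed by −0.64 on the log2 scale (3 d minus 4 h), and this call held without each library in turn. Slc25a24 differed by −0.35, a call lost without S3. Slc25a10 differed by 0.31 (lost without S3, S4 or S8) and Slc25a26 by 0.49 (lost without S3 or S8). Slc25a21 differed by −0.35 and Slc25a54 by −0.41, and both calls were lost without most single libraries.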

How the results depend on the processing

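Of 361 results on named peaks and genes, 307 were called, 61 of these held in every alternative and 14 reversed in at least 1. The joint test over 5 groups called 82 to 112 peaks in the alternatives run for it (left-out libraries, scalings, the low-count filter and the overlap), against 102. Leaving out 1 library gave these ranges of calls, peaks first and genes after: 37 to 83 and 7 to 26 at 4 h, 33 to 64 and 11 to 20 at 1 d, 12 to 39 and 2 to 14 at 3 d, 7 to 21 and 2 to 9 after rosiglitazone, 21 to 34 and 2 to 11 for forskolin minus rosiglitazone, 9 to 26 and 1 to 8 for 3 d minus 4 h, 4 to 14 and 1 to 7 for 1 d minus 4 h, and 0 to 10 and 0 to 16 for 3 d minus 1 d. DESeq2 called 13 peaks at 3 d, 9 after rosiglitazone, 20 for forskolin minus rosiglitazone, 13 for 3 d minus 4 h and 4 for 1 d minus 4 h. With only the 2 groups compared there were 13 peaks at 3 d and 19 for 1 d minus 4 h, and 1 gene at 3 d, 2 for forskolin minus rosiglitazone, 2 for 3 d minus 4 h and 5 for 1 d minus 4 h. Library size alone called 14 genes at 4 h, 4 at 3 d and 2 for 3 d minus 1 d. Trended offsets called 14 genes at 4 h, 4 for 1 d minus 4 h and 2 for 3 d minus 1 d, and 1 peak for 3 d minus 1 d. Promoter-window library sizes called 12 genes at 4 h and 1 for 3 d minus 1 d. Peaks within 10 kb gave 1 gene for 1 d minus 4 h. Peaks within 1 kb of a gene end gave 9 genes at 4 h, 1 after rosiglitazone and 0 at 3 d, for forskolin minus rosiglitazone, for 3 d minus 4 h and for 1 d minus 4 h.

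Reversed values, on the log2 scale, were as follows. With peaks within 1 kb of a gene end Slc25a21 was −0.33 at 4 h, −0.49 at 1 d, −0.11 at 3 d and 0.22 for 3 d minus 4 h, and Slc25a51 −0.12 at 4 h. With promoter-window library sizes Slc25a1 was 0.0282 at 4 h and 0.0120 at 1 d, Slc25a28 0.0457 at 4 h, Slc25a33 0.0552 at 1 d and Slc25a27 0.0181 at 1 d. With trended offsets P60805 was 0.0001 at 4 h, P109140 0.0242 at 4 h and 0.0549 at 1 d, and P13768 0.0693 at 1 d. The cause was not tested. No paired analysis was possible because the columns carry no replicate number of the labels. Leaving out a library leaves its group with 1 sample, assumed to vary like the other groups. Depth limits the weak peaks, whose summed counts are given with their fold changes.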
